A study of Hydra vulgaris with 30 samples.

Results

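A set of 23 of the 51290 transcripts counted in regenerating *Hydra* tips was selected for a higher level after decapitation in DMSO tips and a lower one over the same hours in tips treated with UNC0379. They were chosen from their levels in CPM (reads assigned to a transcript, scaled so that all libraries have the same total), as the mean of each group's libraries. The highest DMSO mean had to reach 30 CPM. The DMSO mean had to lie above its 0 hpa value by at least 0.7 on the log2 scale, averaged over 8 and 12 hours postamputation (hpa). The UNC0379 mean had to lie below the DMSO mean by at least 1 on the log2 scale, averaged over 3, 8 and 12 hpa, with a difference above -0.7 at 0 hpa, and 5 CPM was added to each mean before the logarithm. The levels at 0, 3, 8 and 12 hpa therefore chose the transcripts and are given as a description. The difference between treatments at 24 hpa was not used for the choice and was tested.

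Polyps of the *Hydra vulgaris* strain Ind-Pune, a clonal culture, were kept in UNC0379 or in 0.2% DMSO, its vehicle. Tips were taken right after decapitation (0 hpa) and after 3, 8, 12 or 24 h, which made 10 groups of 3 libraries. For the inhibitor, the treatment label of each sample states 150 µM, whereas the protocol text has mM as the unit of that dose. Time after decapitation and time in the inhibitor cannot be told apart within the treated tips, and no uncut polyps are among the 30 libraries. Whether replicate libraries stem from separate cultures is not stated, and p-values thus reflect only the spread among the libraries at hand.

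*Hydra* rebuilds its head after decapitation by closing the wound and then setting up a new head organizer, a signalling centre at the tip in which Wnt/β-catenin signalling is active and from which the mouth region and tentacles are patterned. SETD8, also called KMT5A, is the enzyme that places a single methyl group on lysine 20 of histone H4, and UNC0379 is a small-molecule inhibitor of it. Transcripts that rise in the first hours after the cut include responses to the wound as well as genes of the forming head, and the time course alone does not separate them. In a whole tip, fewer cells of a type and less RNA per cell cannot be told apart. None of the 23 identifiers was found in the gene table of the reference used here, and neither was any other of the 51290 identifiers counted. The missing names are thus no trait of the set. The transcripts are named by identifier only, no role is given for any of them, and no cell type markers could be checked.

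Of the 23 identifiers 15 begin with Sc4wPfr and 8 with MSTRG, and MSTRG identifiers made 34.8% of the set and 27.2% of the 5046 transcripts that passed the filter on low counts. By its identifier each of the 23 was the only annotated transcript of its gene model, whereas 8.05% of the transcripts tested shared a model with another. No count of the set is thus divided among transcripts with the same model identifier. Whether models with different identifiers overlap was not checked.

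The libraries held 146798 to 811079 assigned reads. A set of 3 libraries was left out together as an alternative, chosen with earlier results of these data known. UNC0379 24 hpa replicate 3 was the shallowest, with 1 count worth 6.81 CPM, and its correlation with the mean of the other libraries of its group was 0.767 across transcripts, against 0.87 to 0.974 in the other 29 libraries. DMSO 24 hpa replicate 3 had 98.2% of its reads not aligned, and UNC0379 0 hpa replicate 3 correlated at 0.893 with its group. UNC0379 24 hpa replicate 2 had the 0.87, lower than that, and the mean it was set against includes replicate 3. Without it 10 of the 23 were called lower at 24 hpa, and over all transcripts 308 were lower and 198 higher, against 268 and 105 with all libraries. Ambiguous reads, which are not counted, were 1.03 to 1.22 times as many as the assigned ones. A count of 0 allows up to 3 counts, which is 3.70 CPM in the deepest library and 20.4 CPM in the shallowest, for counting error only. For some of the transcripts whose values rest on these libraries, the 24 hpa result is also given without them.

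The bounds cut through a continuous range of values. In DMSO tips 208 transcripts met the level and induction bounds. Of these, 23 formed the set, 7 were as low under UNC0379 at 3 to 12 hpa but were already lower at 0 hpa, and 178 did not reach the bound for the loss. The last members inside the loss bound were Sc4wPfr_575.1.g18277.t1 at -1.01 and MSTRG.1084.1 at -1.03, and the first outside it were Sc4wPfr_447.g29030.t1 at -0.99 and Sc4wPfr_720.g12274.t1 at -0.97. At the induction bound MSTRG.25408.1 (0.77) and Sc4wPfr_536.g2756.t1 (0.78) lay inside, and MSTRG.9827.1 and Sc4wPfr_1086.g6578.t1 (both 0.69) outside. At the 0 hpa bound Sc4wPfr_977.g21615.t1 (-0.62) and Sc4wPfr_547.1.g24952.t1 (-0.52) lay inside, and Sc4wPfr_798.g20991.t1 (-0.73) and Sc4wPfr_884.g31949.t1 (-0.80) outside. At the level bound MSTRG.6193.1 (32.6 CPM) and Sc4wPfr_1975.g29199.t1 (33.4 CPM) lay inside, and Sc4wPfr_147.g8607.t1 (28.7 CPM) and Sc4wPfr_390.g5621.t1 (28.2 CPM) outside.

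**Figure D1:**
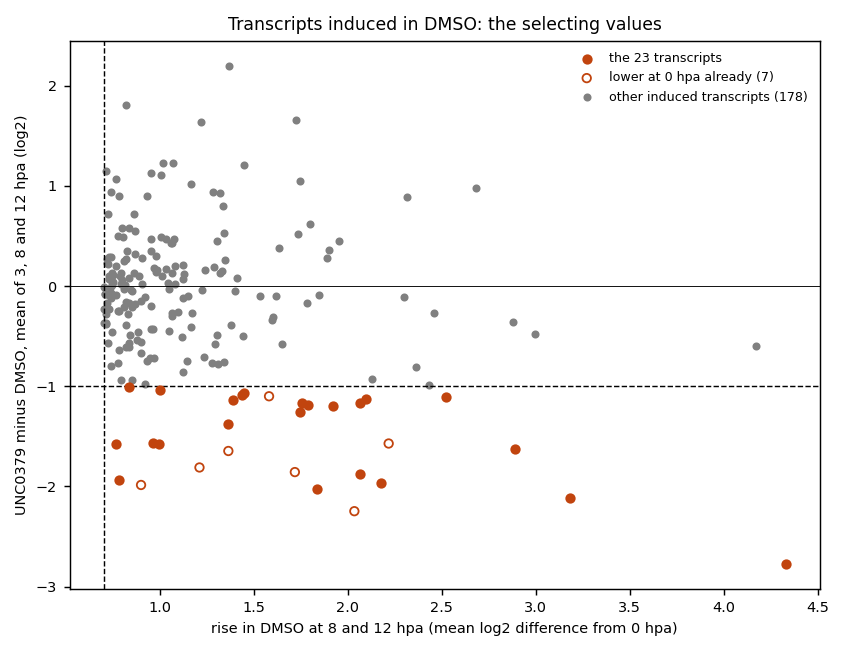
The 208 transcripts induced in DMSO tips, by their rise in DMSO at 8 and 12 hpa (x axis, mean log2 difference from 0 hpa) and by UNC0379 minus DMSO averaged over 3, 8 and 12 hpa (y axis, log2 scale), with dashed lines at the bounds of 0.7 and -1. Filled points are the 23 transcripts, open circles the 7 that were already lower at 0 hpa, and grey points the other 178, which spread on both sides of 0; Sc4wPfr_588.g23875.t1 is the point at the lower right.

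In DMSO tips the 23 transcripts stood above their 0 hpa level mainly from 8 hpa on. The median log2 rise over 0 hpa was 0.60 at 3 hpa and 1.61 at 8 hpa, then 1.77 and 1.55 at the 2 later times. At 3 hpa 8 of the 23 lay 0.7 or more above 0 hpa, and at 8 and 12 hpa 22 did at each time. The level bound was met by 3325 transcripts, of which 157 rose as much at 3 hpa, 209 at 8 hpa and 221 at 12 hpa. In DMSO tips 6 of the 23 had their highest mean at 8 hpa, 9 had it at 12 hpa and 8 at 24 hpa. Of the 3325, 374, 542 and 799 did, in the same order. In UNC0379 tips the median change of the 23 from their own 0 hpa level was -0.05 at 3 hpa and -0.14 at 8 hpa, then 0.33 and 0.79 at the 2 later times. At 3 and at 8 hpa 0 of the 23 lay 0.7 above that level, against 254 and 255 of the 3325. At 24 hpa 21 of the 23 had all DMSO libraries above those of 0 hpa, against 8.16% of all tested. The exceptions were Sc4wPfr_248.2.g2955.t1 and Sc4wPfr_977.g21615.t1. In MSTRG.25408.1 and Sc4wPfr_248.2.g2955.t1 the DMSO libraries of 12 hpa were not all above those of 0 hpa either. The values up to 12 hpa follow from the choice of the transcripts, and the count at 24 hpa uses the same DMSO libraries of 0 hpa as the rule, so that it is a description only.

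**Figure D2:**
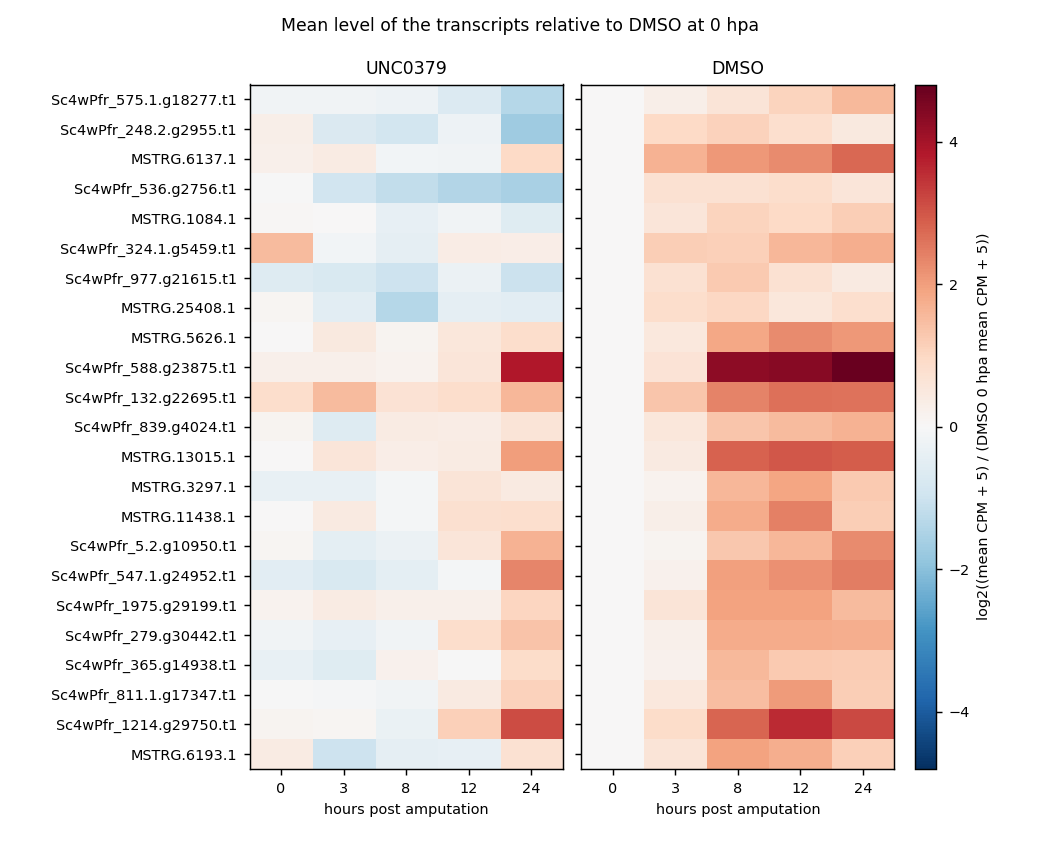
Mean level of each of the 23 transcripts at each time (columns, hpa) in UNC0379 tips (left) and DMSO tips (right), as the log2 ratio to the DMSO mean at 0 hpa with 5 CPM added. Rows run from the most negative to the least negative 24 hpa log2 fold change; the right panel is red from 8 hpa on in all rows, while most cells of the left panel up to 12 hpa are pale or blue, and Sc4wPfr_588.g23875.t1 and Sc4wPfr_1214.g29750.t1 are dark red there at 24 hpa.

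The transcript with the largest rise and the largest loss was Sc4wPfr_588.g23875.t1. At 0 hpa it had 0, 1.63 and 7.71 CPM in UNC0379 tips, against 0, 4.23 and 1.4 CPM in DMSO tips. At 8 hpa it had 2.72, 3.59 and 1.95 CPM in UNC0379 tips, against 139, 105 and 147 CPM in DMSO tips. At 12 hpa it had 4.03, 0 and 11.6 CPM in UNC0379 tips, against 136, 139 and 134 CPM in DMSO tips. The groups overlapped at 0 hpa, where both were close to no counts, and lay far apart at 8 and 12 hpa, when treated tips still held single counts. At 24 hpa it had 61.8, 67.4 and 149.9 CPM in UNC0379 tips, against 147, 186 and 203 CPM in DMSO tips. All 3 treated libraries were then above those of 12 hpa, and the shallow replicate 3, with 22 counts, reached the DMSO range.

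Sc4wPfr_1214.g29750.t1 followed the same course at a lower level. At 8 hpa it had 0, 1.79 and 0 CPM in UNC0379 tips, against 55.8, 40.4 and 35.8 CPM in DMSO tips. At 12 hpa it had 10.1, 17.2 and 3.85 CPM in UNC0379 tips, against 51.7, 96.1 and 88 CPM in DMSO tips, and at 24 hpa 45.8, 47.5 and 74.9 CPM in UNC0379 tips, against 54.9, 49.4 and 68.8 CPM in DMSO tips. The treated libraries held 0 or 1 count at 8 hpa, lay below the DMSO libraries at 12 hpa and overlapped with them at 24 hpa. Sc4wPfr_547.1.g24952.t1 had 4.03, 9.56 and 10.3 CPM in UNC0379 tips, against 64.1, 43.3 and 66 CPM in DMSO tips at 12 hpa, and 36.6, 29.1 and 129 CPM in UNC0379 tips, against 72.3, 60.6 and 81.6 CPM in DMSO tips at 24 hpa. Its treated mean at 24 hpa rested on replicate 3, with 19 counts, since the other 2 were below every DMSO library. The log2 fold change of Sc4wPfr_547.1.g24952.t1 at 24 hpa was -0.46 in edgeR, and ran from -1.13 to -0.03 over all its alternative fits. MSTRG.13015.1, close to 0 at the start in both treatments, had 2.02, 1.91 and 2.57 CPM in UNC0379 tips, against 28.9, 45.2 and 38.1 CPM in DMSO tips at 12 hpa and 20.6, 23 and 6.81 CPM in UNC0379 tips, against 42.4, 42.6 and 20.8 CPM in DMSO tips at 24 hpa. Its treated libraries of 24 hpa all lay above those of 12 hpa, although replicate 3 held a single count.

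Other members had a measurable level at 0 hpa and a lower treated mean at 8 hpa. MSTRG.25408.1, the most abundant of the 23 in DMSO tips at 8 hpa, had 384, 324 and 426 CPM in UNC0379 tips, against 221, 529 and 299 CPM in DMSO tips at 0 hpa. At 8 hpa it had 117, 126 and 152 CPM in UNC0379 tips, against 649, 771 and 656 CPM in DMSO tips. The treated libraries overlapped with the DMSO libraries at 0 hpa and at 8 hpa lay below every one of them and below their own 0 hpa level. Sc4wPfr_536.g2756.t1 had 46, 42.5 and 72.5 CPM in UNC0379 tips, against 47.3, 71.9 and 43.5 CPM in DMSO tips at 0 hpa, and 16.3, 19.7 and 27.3 CPM in UNC0379 tips, against 106, 74.7 and 96.2 CPM in DMSO tips at 8 hpa. Sc4wPfr_248.2.g2955.t1 had 52, 26.1 and 13.9 CPM in UNC0379 tips, against 39.4, 16.9 and 16.8 CPM in DMSO tips at 0 hpa. At 8 hpa it had 16.3, 8.97 and 7.81 CPM in UNC0379 tips, against 57.8, 68.7 and 48.1 CPM in DMSO tips. Its treated libraries of 0 and 8 hpa overlapped. In 5 of the 23 transcripts all 3 treated libraries at 8 hpa lay below all 3 at 0 hpa, against 6.64% of all transcripts tested, and in 1 they lay above, against 14.1%.

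At 0 hpa the treatments differed in some members, in both directions. Sc4wPfr_324.1.g5459.t1 had 84, 42.5 and 97.2 CPM in UNC0379 tips, against 7.89, 27.5 and 32.2 CPM in DMSO tips, and by 3 hpa it had 22.1, 22.2 and 16.4 CPM in UNC0379 tips, against 46.5, 51.8 and 75.5 CPM in DMSO tips. Treated tips therefore began above every DMSO library and were below every one at 3 hpa. Sc4wPfr_132.g22695.t1 also began higher under UNC0379, with 76, 53.9 and 86.4 CPM in UNC0379 tips, against 36.8, 46.6 and 29.4 CPM in DMSO tips, and at 12 hpa had 58.4, 70.8 and 83.5 CPM in UNC0379 tips, against 261, 269 and 264 CPM in DMSO tips. In Sc4wPfr_365.g14938.t1 and Sc4wPfr_977.g21615.t1 every treated library was already below every DMSO library at 0 hpa (13.1% of all transcripts tested). Treated libraries all above the DMSO libraries, as in Sc4wPfr_324.1.g5459.t1 and Sc4wPfr_132.g22695.t1, were found in 5.21% of all tested. The remaining 19 overlapped at 0 hpa. Without UNC0379 0 hpa replicate 3 the rule chose 23 transcripts, of which 22 were the same.

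MSTRG.6137.1 had the largest difference between 0 and 3 hpa in DMSO tips. At 0 hpa it had 18, 14.7 and 26.2 CPM in UNC0379 tips, against 5.26, 23.3 and 19.6 CPM in DMSO tips, and at 3 hpa 18.9, 24.2 and 24.6 CPM in UNC0379 tips, against 59.4, 64.7 and 59.8 CPM in DMSO tips. Treated tips overlapped with DMSO tips at 0 hpa and lay below every DMSO library at 3 hpa. The 4 with the largest log2 difference in DMSO tips between 0 and 3 hpa were MSTRG.6137.1 (1.65), Sc4wPfr_132.g22695.t1 (1.33), Sc4wPfr_324.1.g5459.t1 (1.19) and Sc4wPfr_248.2.g2955.t1 (0.96). Sc4wPfr_132.g22695.t1 had 104, 121 and 123 CPM in UNC0379 tips, against 95.5, 94.9 and 116 CPM in DMSO tips at 3 hpa. The treatments overlapped there, and at 8 hpa they did not, with 73.4, 68.2 and 52.7 CPM in UNC0379 tips, against 256, 192 and 205 CPM in DMSO tips.

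The median log2 difference between UNC0379 and DMSO was 0.07 at the cut and -0.66 at 3 hpa, and it was -1.88 at 8 hpa and -1.65 at 12 hpa. The treated libraries were all below the DMSO libraries in 13 of the 23 transcripts at 3 hpa, 23 at 8 hpa and 22 at 12 hpa, against 11.7%, 12.2% and 14.0% of all transcripts tested. The exception at 12 hpa was Sc4wPfr_248.2.g2955.t1. These counts follow from the rule and are given as a description only.

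**Figure D3:**
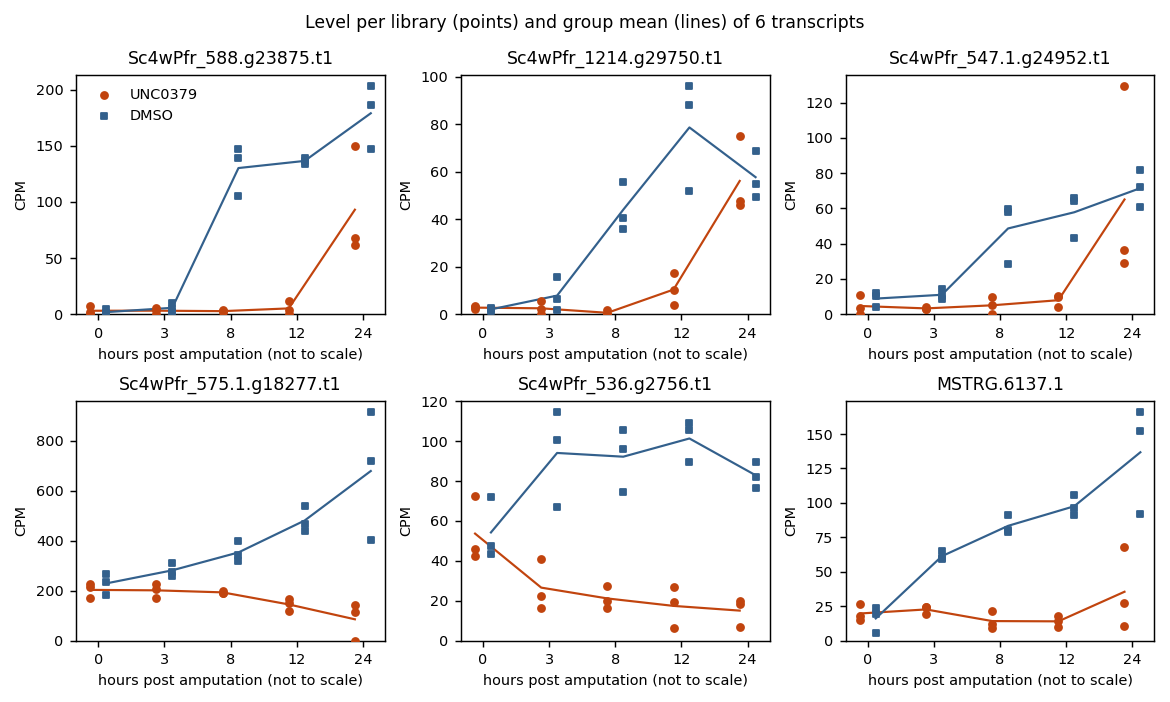
CPM (y axes, from 0) in each library at each time (x axes, hpa, evenly spaced) for 6 of the 23 transcripts, with circles for UNC0379, squares for DMSO and lines through the group means. The upper 3 panels show treated libraries at or below 10.8 CPM up to 8 hpa and at or above 29.1 CPM at 24 hpa; the lower 3 show treated means below all DMSO libraries at 24 hpa.

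The contrast that the rule did not use was UNC0379 against DMSO at 24 hpa, and it answers whether the transcripts were still lower a day after the cut. In edgeR's quasi-likelihood test over all 30 libraries, with Benjamini-Hochberg adjustment over 5046 transcripts at a threshold of 0.05, 9 of the 23 were lower under UNC0379 and 0 were higher. Of all transcripts tested, 5.31% were lower and 2.08% higher, and of the 3323 whose DMSO mean reached 30 CPM at some time 7.34% were lower. All 23 transcripts had been tested. In 11 of the 23 every treated library was below every DMSO library, against 11.0% of all tested. The log2 fold change was below 0 in 23 of 23, against 2585 of the 5046 transcripts tested. Its median was -0.98, against -0.02 over all transcripts tested. DESeq2 and limma-voom also called 0 of the 23 higher.

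The count depended on which libraries entered the fit. Fitted to the 6 libraries of 24 hpa alone, edgeR tested 19 of the 23 and called 1 lower, Sc4wPfr_536.g2756.t1 (log2 fold change -2.28, adjusted p = 0.0321, the highest of all its alternatives), while the median log2 fold change was -0.98. Over all transcripts that fit called 64 of 3070 lower (2.08%), against 5.31% with all libraries. Without UNC0379 24 hpa replicate 3 the test called 10 of the 23 lower (4.59% of all tested). Without DMSO 24 hpa replicate 3 it called 9 (4.95% of all tested).

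**Figure D4:**
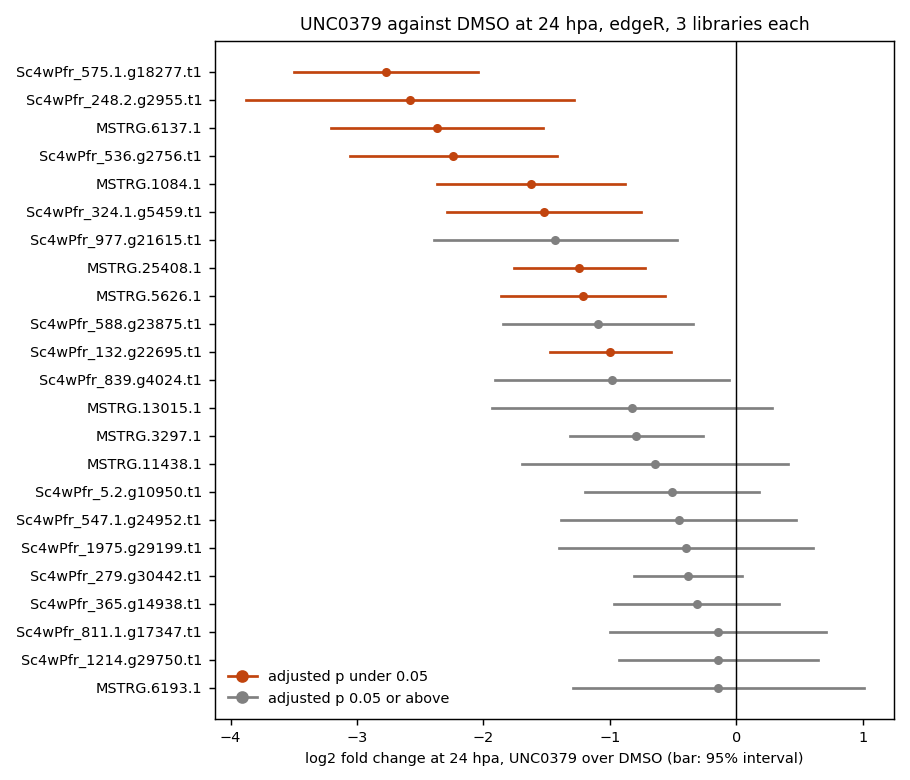
The log2 fold change at 24 hpa, UNC0379 over DMSO (x axis), of each of the 23 transcripts (y axis), from edgeR with 3 libraries per group; points are estimates, bars 95% intervals, and colour marks an adjusted p under 0.05. All 23 points lie left of 0, and the 9 coloured ones run from -2.77 to -0.99.

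With all libraries, the most negative log2 fold change at 24 hpa was in Sc4wPfr_575.1.g18277.t1. It had 142, 113 and 0 CPM in UNC0379 tips, against 915, 720.5 and 403 CPM in DMSO tips. The 2 deeper treated libraries held 62 and 74 counts and the shallow replicate 3 held 0, and all 3 lay below every DMSO library (log2 fold change -2.77 ± 0.36 (SE), 95% interval -3.50 to -2.04, adjusted p = 1.4e-06, edgeR). Without that library the log2 fold change was -2.40 (adjusted p = 3.5e-09, edgeR), and that of MSTRG.6137.1 was more negative, at -2.92. Over all its alternatives the adjusted p ran from 2.5e-18 to 0.173, the highest with only the libraries of 24 hpa. In DMSO tips the mean of this transcript was higher at each later time, with 229, 281, 353, 481 and 679.6 CPM at the 5 times. In treated tips the means were 203, 201, 193, 145 and 85.1 CPM, and the treatments lay further apart at each later time.

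Sc4wPfr_248.2.g2955.t1 had 4.58, 7.66 and 0 CPM in UNC0379 tips, against 49.9, 33.7 and 22.4 CPM in DMSO tips at 24 hpa, with 7 counts in all in the treated libraries and no overlap (log2 fold change -2.58 ± 0.64 (SE), 95% interval -3.88 to -1.29, adjusted p = 0.0072, edgeR). Sc4wPfr_536.g2756.t1 had 18.3, 19.9 and 6.81 CPM in UNC0379 tips, against 82.3, 89.8 and 76.8 CPM in DMSO tips (log2 fold change -2.24 ± 0.40 (SE), 95% interval -3.06 to -1.42, adjusted p = 1.8e-04, edgeR), again with no overlap. Both were below their own 0 hpa level in treated tips at 24 hpa. MSTRG.6137.1 had 27.5, 10.7 and 68.1 CPM in UNC0379 tips, against 92.3, 166 and 152 CPM in DMSO tips (log2 fold change -2.37 ± 0.41 (SE), 95% interval -3.21 to -1.53, adjusted p = 1.1e-04, edgeR). Its highest treated value came from the shallow replicate 3, and without it the log2 fold change was -2.92.

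The other 5 calls were of smaller size. MSTRG.1084.1 had 41.2, 55.2 and 0 CPM in UNC0379 tips, against 107, 137 and 128 CPM in DMSO tips, with a log2 fold change of -1.62 (adjusted p = 0.0029, edgeR). MSTRG.25408.1 had 337, 269.7 and 136 CPM in UNC0379 tips, against 648, 543 and 641 CPM in DMSO tips, with -1.24 on the same scale (adjusted p = 9.7e-04, edgeR). In both, every treated library lay below every DMSO library. Sc4wPfr_324.1.g5459.t1 (-1.52) and Sc4wPfr_132.g22695.t1 (-0.99), the 2 that had begun higher under UNC0379, were lower at 24 hpa (adjusted p = 0.0074 and 0.0044, edgeR). MSTRG.5626.1 had 59.5, 50.6 and 20.4 CPM in UNC0379 tips, against 94.8, 105 and 133 CPM in DMSO tips (log2 fold change -1.21, adjusted p = 0.0131, edgeR). Its call rested on DMSO 24 hpa replicate 3, without which the adjusted p was 0.0689 in edgeR, within a range of 0.0058 to 0.203 over all its alternatives.

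The other 14 transcripts did not pass the threshold at 24 hpa. MSTRG.3297.1 (log2 fold change -0.79, adjusted p = 0.0565), Sc4wPfr_977.g21615.t1 (-1.43, adjusted p = 0.0589) and Sc4wPfr_588.g23875.t1 (-1.10, adjusted p = 0.0656) came closest in edgeR. Sc4wPfr_588.g23875.t1 was called lower without UNC0379 24 hpa replicate 3 (log2 fold change -1.46, adjusted p = 0.0049, edgeR), and Sc4wPfr_977.g21615.t1 was called lower without DMSO 24 hpa replicate 3 (log2 fold change -1.73, adjusted p = 0.0259, edgeR). Over all alternatives the adjusted p ran from 0.0041 to 0.531 in Sc4wPfr_588.g23875.t1 and from 0.0259 to 0.364 in Sc4wPfr_977.g21615.t1.

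The smallest differences at 24 hpa were in Sc4wPfr_1214.g29750.t1 (log2 fold change -0.14 ± 0.39 (SE), 95% interval -0.93 to 0.64, adjusted p = 0.907, edgeR), Sc4wPfr_811.1.g17347.t1 (log2 fold change -0.15 ± 0.42 (SE)) and MSTRG.6193.1 (-0.14, interval -1.29 to 1.01). The interval of Sc4wPfr_1214.g29750.t1 covers falls and rises of moderate size, so that its values at 24 hpa show no difference that 3 libraries can resolve and do not show equality. Sc4wPfr_811.1.g17347.t1 had 27.5, 18.4 and 27.2 CPM in UNC0379 tips, against 15, 38.2 and 24 CPM in DMSO tips. MSTRG.6193.1 had 9.16, 26.1 and 0 CPM in UNC0379 tips, against 22.4, 13.5 and 16 CPM in DMSO tips, and its log2 fold change was -1.36 without UNC0379 24 hpa replicate 2. In both the treatments overlapped, and the DMSO means were lower than those of 12 hpa, when Sc4wPfr_811.1.g17347.t1 averaged 50.7 and MSTRG.6193.1 28.6 CPM. Sc4wPfr_279.g30442.t1, among the most abundant of the set, had 215, 204 and 286 CPM in UNC0379 tips, against 324, 285 and 299 CPM in DMSO tips, with a log2 fold change of -0.38 and an interval from -0.81 to 0.04.

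Sc4wPfr_5.2.g10950.t1, Sc4wPfr_365.g14938.t1, Sc4wPfr_1975.g29199.t1, MSTRG.11438.1 and Sc4wPfr_839.g4024.t1 lay between these, with log2 fold changes of -0.51, -0.31, -0.40, -0.64 and -0.98 and overlapping treatments. Treated tips at 24 hpa lay above UNC0379 at 0 hpa by 1.58 in Sc4wPfr_5.2.g10950.t1 and 1.26 in Sc4wPfr_365.g14938.t1, on the log2 scale with 5 CPM added. MSTRG.11438.1 differed from them in its DMSO level, with a mean of 65.1 CPM at 12 hpa and 24.6 CPM at 24 hpa.

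Within the treated tips, 15 of the 23 transcripts had their highest mean at 24 hpa, 6 at 0 hpa and 2 at 12 hpa. Of the 3325 transcripts whose DMSO mean reached 30 CPM at some time, 886, 582 and 383 did, in the same order. All 3 treated libraries at 24 hpa lay above all 3 at 12 hpa in 8 transcripts, against 9.39% of all transcripts tested, and above all 3 at 0 hpa in 10, against 7.15%. In 4 they lay below all 3 at 0 hpa, against 12.4% of all tested. The treated levels at 12 hpa helped to choose the transcripts, and these counts are a description. The treated mean at 24 hpa had reached the DMSO mean of 8 hpa in 3 of the 23, against 1320 of those 3325.

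Summed over the 9 transcripts called lower at 24 hpa, treated libraries held 838, 664 and 347 CPM at 24 hpa, against 2254, 2150 and 1966 CPM in DMSO libraries. Summed over the other 14, they held 643, 700.3 and 817 CPM, against 1075, 1062 and 1083 CPM. At 12 hpa the sum over the 14 averaged 372 ± 18.4 CPM in treated tips and 1160 ± 47.4 CPM in DMSO tips (SD, n = 3 each). The sum over the 14 was thus higher in treated tips at 24 hpa than at 12 hpa, with no overlap between the libraries. The division into 9 and 14 was made on the 24 hpa values, so that its sums at that time are a description. The treated levels at 12 hpa helped to choose the transcripts, so that the comparison of 24 with 12 hpa is a description as well. The sums are weighted towards abundant transcripts. Among the 9, Sc4wPfr_575.1.g18277.t1 averaged 679.6 CPM and MSTRG.25408.1 611 CPM in DMSO tips at 24 hpa. Among the 14, Sc4wPfr_279.g30442.t1 averaged 235 CPM in treated tips at 24 hpa.

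**Figure D5:**
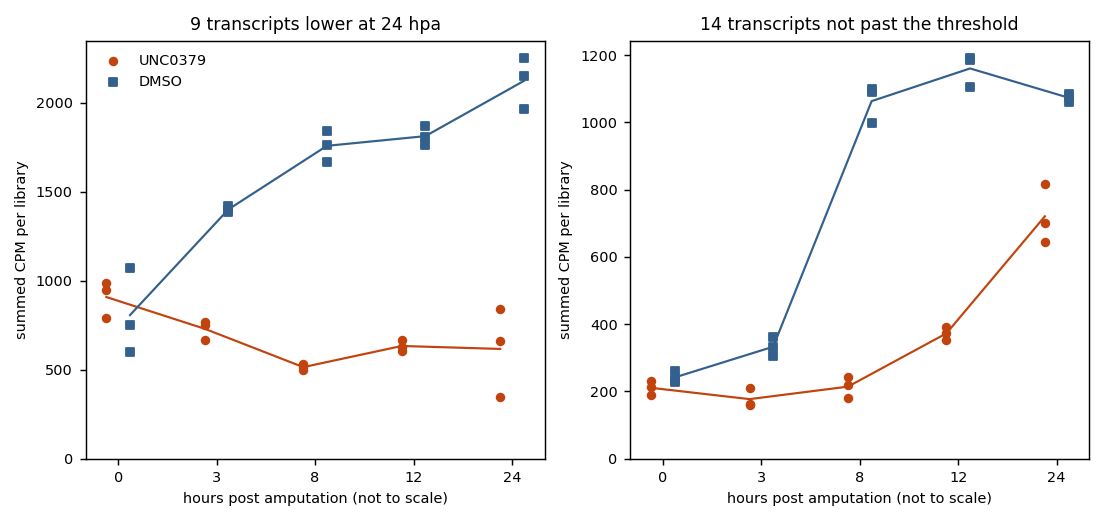
CPM summed in each library over the 9 transcripts called lower at 24 hpa (left) and over the other 14 (right), at each time (x axes, hpa, evenly spaced), with circles for UNC0379, squares for DMSO and lines through the group means. The treated sums stay between 347 and 986 CPM in the left panel and reach 643 to 817 CPM at 24 hpa in the right one; the 24 hpa values divided the transcripts between the panels.

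Of the 185 other transcripts induced in DMSO by the same bounds, which include the 7 that were as low at 3 to 12 hpa but already lower at 0 hpa, 9 were called lower at 24 hpa (4.86%) and 12 higher, with a median log2 fold change of -0.22. Of the 72 lowered by the same bounds but not induced, 51 were called lower (70.8%) and 0 higher, with a median of -1.86. The corresponding values of the 23 were 9 (39.1%), 0 and -0.98. Relative to UNC0379 at 0 hpa, the median change in treated tips at 24 hpa was 0.79 in the 23, -0.26 in the 185 and -1.27 in the 72, on the log2 scale with 5 CPM added. The sets did not start alike, with a median difference between UNC0379 and DMSO at 0 hpa of 0.07, 0.44 and -0.44, in the same order. In DMSO tips the median change from 0 to 24 hpa was 1.55, 0.58 and -0.05. No test was made between these sets, whose transcripts are not replicates.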

How the data were processed

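Regenerating *Hydra* tips were profiled by QuantSeq 3′ mRNA sequencing in 30 libraries. The authors deposited raw transcript counts, separately for every library. Trimmomatic, HISAT2 and HTSeq are named in the submitters' processing notes, with no versions; build, annotation and strandedness were not given in the sources used here. Lines of HTSeq totals (5 per file) were left out of library sizes and tests. CPM were computed from the library sums. Counts were filtered with filterByExpr (5046 transcripts), normalized by TMM (factors 0.904 to 1.11) and fitted with edgeR 4.0.16 in R 4.3.3, robust quasi-likelihood, 1 coefficient per group, with adjusted p-values over all transcripts tested. The test was run on simulated data first. Alternatives used DESeq2 1.42.0, limma 3.58.1 (voom), upper-quartile normalization, other filters, a replicate block, fewer libraries and counts summed per gene model. The transcripts, bounds and comparison sets were chosen with earlier results of these data known. Up to 30 members could all be named, and all 23 were, together with the 2 transcripts nearest each bound on either side. No sequences were used here, and intervals cover only the spread between libraries.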

Additional observations from a re-analysis of the deposited data

Results flagged for a closer look

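The difference between UNC0379 and DMSO took opposite directions at 0 hpa and later in 2 of the 23 transcripts, with no overlap between the libraries of the treatments. In Sc4wPfr_132.g22695.t1 the log2 difference at 0 hpa exceeded that at 8 hpa by 2.53, that at 12 hpa by 2.68 and that at 24 hpa by 1.86, with 5 CPM added. In Sc4wPfr_324.1.g5459.t1 it exceeded that at 3 hpa by 2.85, at 8 hpa by 3.12, at 12 hpa by 2.75 and at 24 hpa by 2.99. The difference between times was not tested, and the values at 0 to 12 hpa had a part in choosing both transcripts. Since the rule asks for a lower treated level on average over 3, 8 and 12 hpa, a member that began higher had to change direction. Treated libraries all above the DMSO libraries at 0 hpa were found in 5.21% of all tested. How many of all transcripts changed direction in this way was not counted.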

How the results depend on the processing

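The count of members lower at 24 hpa was 9 to 11 with each library left out in turn and 9 or 10 with DESeq2, limma-voom, upper-quartile normalization, no filter, at least 10 counts in 15 libraries (15 members tested), the replicate block, the gene model sums and without the 3 libraries. It was 1 with only the 24 hpa libraries, where 19 members were tested and 64 of 3070 transcripts in all were lower and 5 higher. The cause was not tested. The median log2 fold change of the members ran from -1.08 to -0.86 over the libraries left out. Over all transcripts the calls were 268 lower and 105 higher; DESeq2 gave 256 and 158. The higher calls numbered 49 with limma-voom, 46 with no filter, and 47 to 198 with 1 library left out, the lower ones 212 to 308. The higher calls reached 198 without UNC0379 24 hpa replicate 2 and fell to 47 and 48 without replicate 1 or 2 of DMSO 24 hpa.

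Members that were not called changed sign in some settings: MSTRG.6193.1 was at 0.060 without the 3 libraries, 0.15 and 0.12 when UNC0379 24 hpa replicate 1 or 3 was left out and 0.052 without DMSO 24 hpa replicate 1, Sc4wPfr_811.1.g17347.t1 at 0.076 and 0.21 without replicate 2 of UNC0379 or of DMSO at 24 hpa, and Sc4wPfr_1214.g29750.t1 at 0.017 without DMSO 24 hpa replicate 3. With 1 library left out, these ran from -1.36 to 0.15, -0.40 to 0.21 and -0.31 to 0.017 in the same order. MSTRG.5626.1 lost its call without DMSO 24 hpa replicate 3 and without the 3 libraries. Sc4wPfr_588.g23875.t1 was called lower in 10 of 37 alternatives, among them without UNC0379 0 hpa replicate 3, UNC0379 12 hpa replicate 2 or 3 and DMSO 0 hpa replicate 1 or 2; Sc4wPfr_977.g21615.t1 in 3, among them without UNC0379 12 hpa replicate 2; and MSTRG.3297.1 in 2, with at least 10 counts in 15 libraries and without UNC0379 24 hpa replicate 2.

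Pairing by replicate number was not taken as shown: at 24 hpa the deviations of same-numbered libraries correlated at 0.03, 0.13 and 0.35, not all above 0.1, and 3 of 6 libraries correlated best with their own number. Over all groups the mean correlation was 0.055 for the same number and -0.028 for different numbers. With the replicate block 10 members were lower, and 288 transcripts were lower and 141 higher.

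The rule chose 32 transcripts with TMM library sizes (23 of the set among them), 30 with 1 CPM added (21), 19 with 10 CPM added (16), 30 with group medians (17), 23 with gene model sums and 21 to 30 with 1 library left out (20 to 23). The highest, 30, came without DMSO 0 hpa replicate 2. With 1 count worth up to 6.81 CPM, single counts decide the level of the weakest members in UNC0379 24 hpa replicate 3.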
